A study of Mus musculus with 6 samples.

Results

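The 40 genes described here mark the granulocyte, mast cell, basophil, eosinophil, erythroid and megakaryocyte lineages of bone marrow. They were chosen by name, as the records of the deposited tables whose gene name is one of the 40 listed symbols. All 40 were found, 1 record each, among the 51912 gene records. Mononuclear cells of mouse bone marrow (BMMNC in the labels) were grown on hHVS or on PCL, and their poly(A) RNA was sequenced in 3 libraries per scaffold, 6 in all. The labels give the genotype of both groups as wild type (spelled WIDETYPE), name no other allele or agent, and give 10 days as the time on the scaffold. Neither abbreviation is spelled out in the labels; PCL commonly stands for the polyester polycaprolactone. Whether replicate libraries are separate cultures, or separate mice, is not stated, so the p-values speak of the spread among these 6 samples, which may be technical.

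Marrow holds neutrophils at every stage of maturation, and the proteins of their granules are made in waves. Myeloperoxidase and the serine proteases of primary granules are transcribed at the promyelocyte stage, and lactoferrin, cathelicidin and neutrophilic granule protein at the myelocyte stage. Erythroblasts make globin and haem enzymes, megakaryocytes package chemokines and von Willebrand factor into platelet granules, and mast cells and basophils store proteases and histamine. Several of these genes are also transcribed in other cells: Siglecf marks alveolar macrophages as well as eosinophils, Vwf endothelial cells as well as megakaryocytes, and Pf4 has been found in mouse monocytes and macrophages.

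Library totals were 75.1, 83.6 and 78.8 M units on hHVS and 74.1, 72.1 and 74.1 M units on PCL, where 1 unit is 1 estimated count of the deposited table and about 4 units were taken as 1 sequenced fragment, a reading of the values that no source states. A gene was taken as detected in a library above 12 units (3 fragments on that reading), which is 0.144 to 0.166 CPM (units per 1000000 units of the library). This floor covers counting error only, since amplified fragments without molecular identifiers are not independent molecules. Levels compared between genes are deposited FPKM, a value per length, and the same gene is compared between libraries in CPM adjusted with TMM factors. PCL library 3 differed most from its own group (chi-square per gene 27.8 and 30.3, against 15.2 between PCL libraries 1 and 2). Among hHVS libraries its deviation was most like that of library 2, but weakly (correlation 0.15 over genes). A similar value, 0.12, was found between hHVS library 1 and PCL library 1. The main values are also given without PCL library 3 and hHVS library 2, a choice made after seeing the data. Macrophage genes dominated both groups: the 13 records of 12 macrophage markers, among them the surface receptor gene Adgre1 and the complement gene C1qa, had a median of 329, 361 and 362 FPKM in hHVS libraries 1, 2 and 3 and 324, 329 and 322 FPKM in PCL libraries. The 8 lymphoid markers summed to 0.243 to 0.346 FPKM on hHVS and 0.296 to 0.461 FPKM on PCL, and the 8 stromal markers to 0.98 to 5.06 FPKM on hHVS and 3.99 to 15.6 FPKM on PCL.

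After the culture, transcripts of most of these lineages were at trace levels on both scaffolds. Only Pf4 averaged over 10 FPKM across the 6 libraries (61.5 FPKM, the gene ranked 674 by mean FPKM among 26793 genes with any count). The mean FPKM was at least 1 in 11 members and under 1 in the other 29, and under 0.1 in 18 of those. Above the floor in all 6 libraries were 19 members, and 11 were above it in none. By library, 24, 23 and 24 members were detected in hHVS libraries 1, 2 and 3, and 25, 24 and 27 in PCL libraries 1, 2 and 3. Because these are bulk samples, fewer cells of a type and less RNA per cell cannot be told apart.

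**Figure D1:**
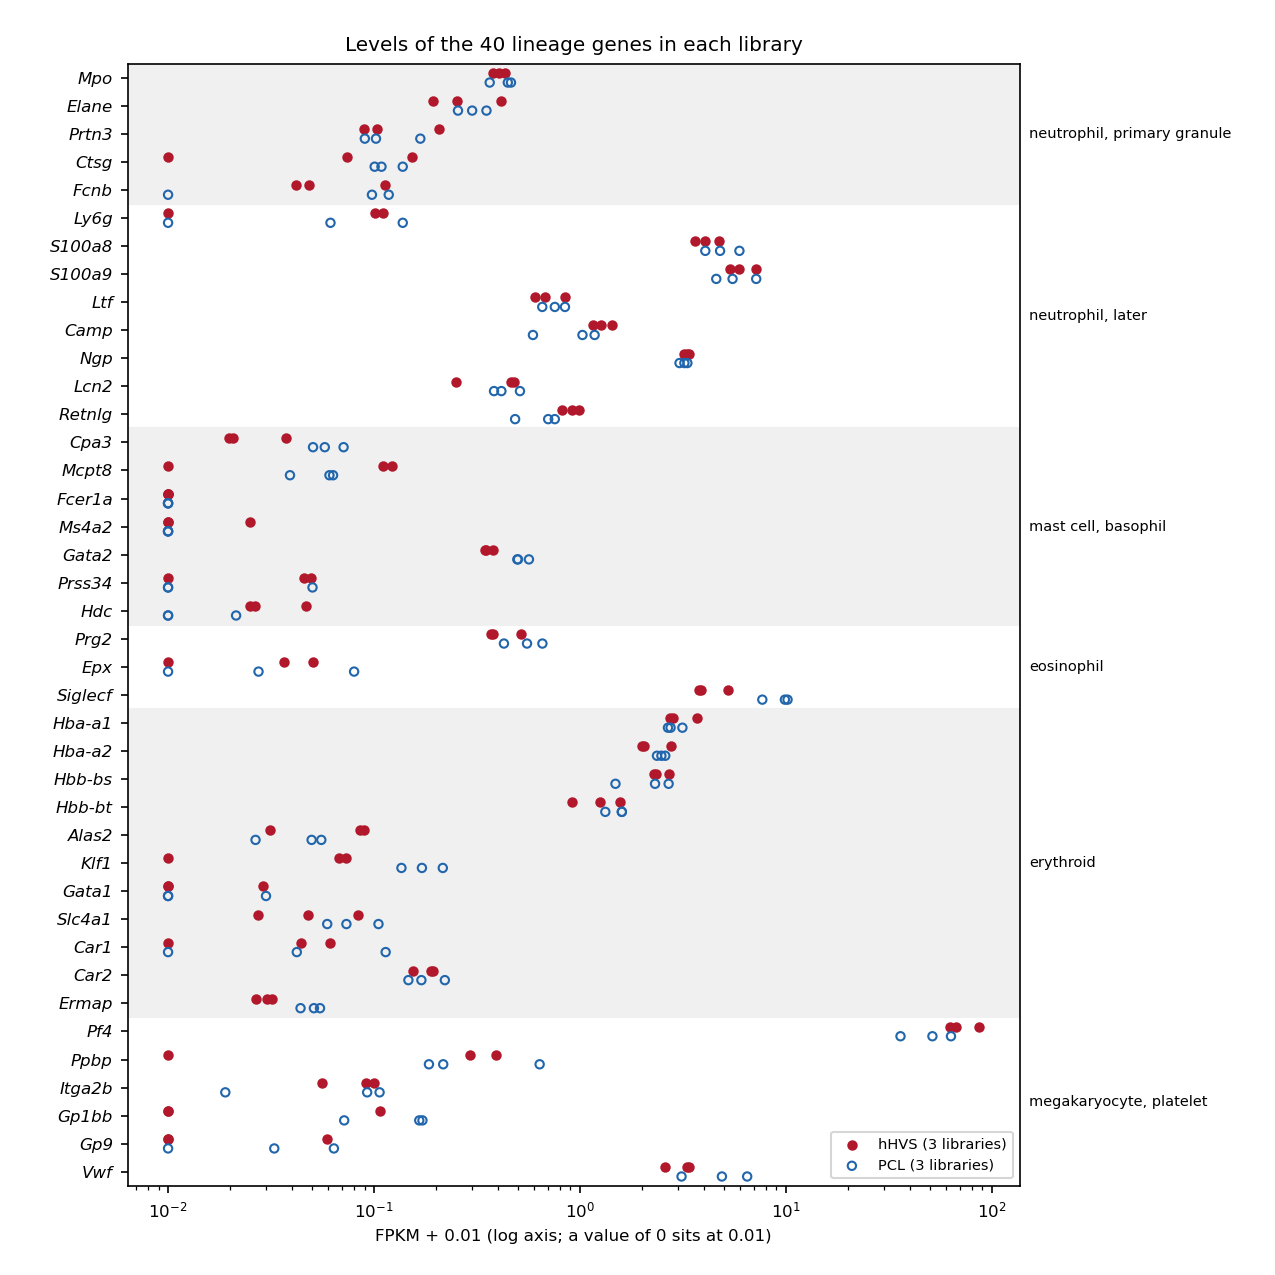
FPKM plus 0.01 (log axis) of each of the 40 genes in the 3 hHVS libraries (filled, upper row of each gene) and the 3 PCL libraries (open, lower row), grouped by lineage. Pf4 stands at the right with a mean of 61.5 FPKM, while Fcer1a sits at 0 in all 6 libraries and most mast cell and basophil genes lie near 0.01 to 0.1.

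No member passed the threshold between scaffolds in edgeR. Of the 40, 27 were expressed enough to be tested, and 0 of them rose and 0 fell on hHVS (adjusted p threshold 0.05, quasi-likelihood test of edgeR). Over all 16364 genes tested 0.862% passed, 0.562% higher and 0.299% lower on hHVS. At an unadjusted p under 0.05, edgeR put 3 of the 27 (11.1%) past the threshold, namely Siglecf, Pf4 and Gata2, against 13.1% of all genes tested. DESeq2 called 2 of the members, Pf4 higher and Siglecf lower, where it called 3.7% of the 17934 genes it adjusted, and limma-voom called 0. A positive log2 fold change (hHVS minus PCL) was seen for 11 of the 27 and a negative one for 16, with a median of -0.05 beside -0.01 over all genes tested. The median standard error (SE) of the 27 was 0.32 on the log2 scale, against 0.16 over all genes tested. Small differences in these low genes were thus not detectable at this depth and spread. Some large ones did not pass either, such as that of Klf1 (log2 fold change -1.92 ± 0.96 SE, adjusted p = 0.444, edgeR).

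On the CPM scale hHVS and PCL libraries were without overlap for 3 tested members that were higher on hHVS (Pf4, Camp and Retnlg) and 4 that were lower (Siglecf, Gata2, Klf1 and Ermap). Over all genes tested, 20.6% did not overlap, 10.7% higher and 9.89% lower. On the FPKM scale 1 of the higher ones (Retnlg) and the same 4 lower ones were without overlap. The share of all genes without overlap was not computed on that scale. On the CPM scale, the 3 of 27 lie near the share of all genes that were higher on hHVS. The 4 of 27 lie somewhat above the share that were lower on hHVS, and neither difference was tested.

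**Figure D2:**
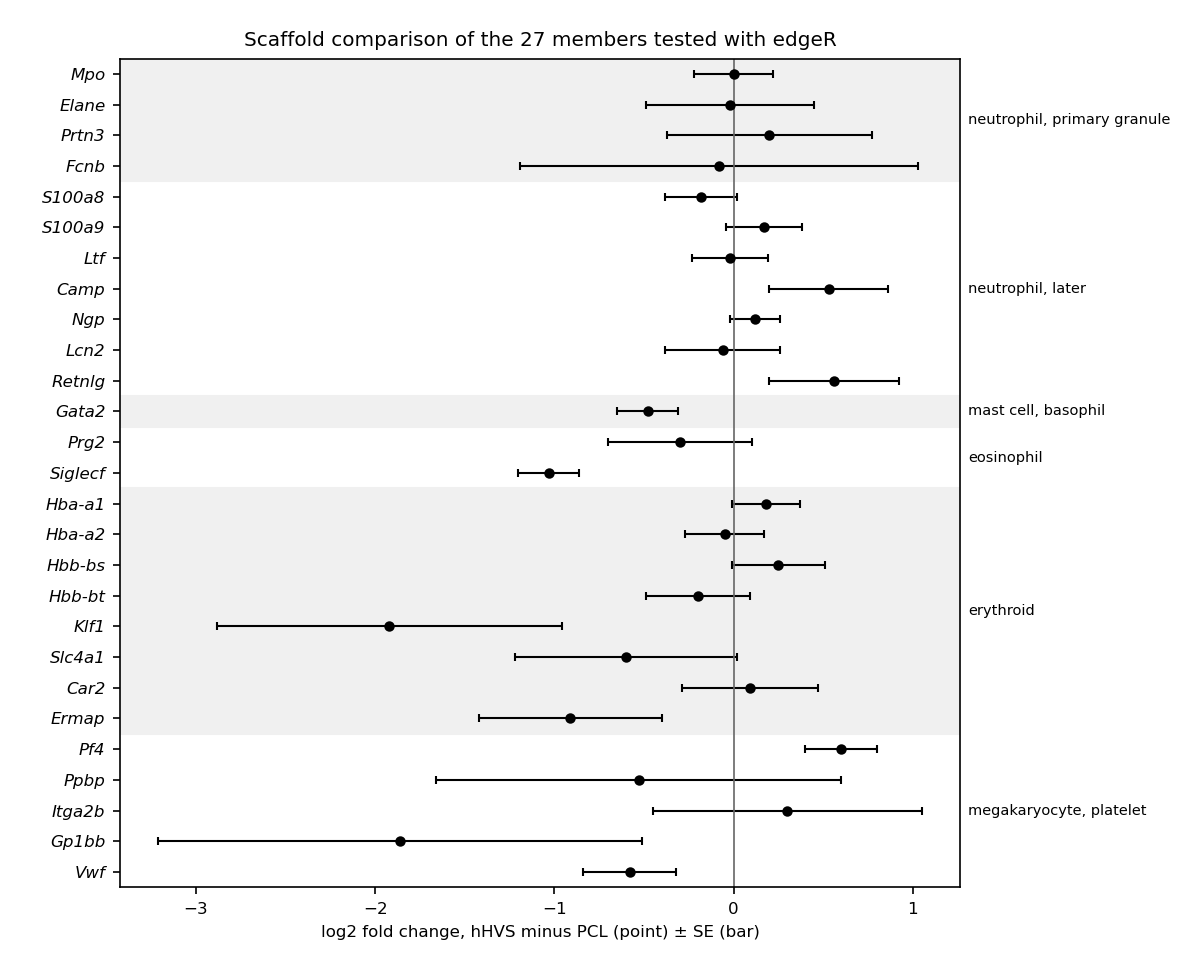
Log2 fold change of each of the 27 tested members, hHVS minus PCL, with its SE as a bar. Positive values are higher on hHVS, Siglecf lies at -1.03 with a short bar, and genes with few fragments such as Gp1bb, Ppbp and Fcnb have the longest bars.

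S100a8, S100a9, Siglecf and Pf4 are the 4 members highest in mean FPKM, and Ppbp is the neighbour of Pf4 at a far lower level. For this reason the windows before the starts of these genes are shown. They come from RefSeq on GRCm38.p6 (the assembly also called mm10) and hold the 250 bases before the RefSeq start, trimmed for S100a8 to the 157 bases outside the annotated gene. Capitals mark exact matches to AGATAA (the GATA factor motif), GAGGAAGT (a core of the PU.1 motif) or TATAAA, on either strand.
S100a8, chr3:90668821-90668977, plus strand: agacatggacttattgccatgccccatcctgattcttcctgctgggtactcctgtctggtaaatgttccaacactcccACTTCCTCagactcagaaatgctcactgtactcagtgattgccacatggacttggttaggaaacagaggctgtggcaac
S100a9, chr3:90695722-90695971, minus strand: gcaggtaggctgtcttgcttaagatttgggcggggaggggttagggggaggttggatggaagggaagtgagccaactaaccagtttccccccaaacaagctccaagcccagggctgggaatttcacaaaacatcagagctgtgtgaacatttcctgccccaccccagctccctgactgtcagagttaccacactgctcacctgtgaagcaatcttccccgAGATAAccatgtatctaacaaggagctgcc
Pf4, chr5:90772185-90772434, plus strand: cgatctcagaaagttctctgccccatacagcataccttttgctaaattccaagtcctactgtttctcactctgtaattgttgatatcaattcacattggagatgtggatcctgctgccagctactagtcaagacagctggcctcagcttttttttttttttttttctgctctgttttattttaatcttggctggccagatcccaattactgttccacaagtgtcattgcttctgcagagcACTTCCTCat
Ppbp, chr5:90768268-90768517, plus strand: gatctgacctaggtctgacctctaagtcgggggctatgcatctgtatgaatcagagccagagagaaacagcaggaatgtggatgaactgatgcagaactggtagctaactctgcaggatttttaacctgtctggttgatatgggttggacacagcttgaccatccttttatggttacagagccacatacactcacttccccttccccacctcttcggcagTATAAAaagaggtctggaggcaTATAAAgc
Siglecf, chr7:43351091-43351340, plus strand: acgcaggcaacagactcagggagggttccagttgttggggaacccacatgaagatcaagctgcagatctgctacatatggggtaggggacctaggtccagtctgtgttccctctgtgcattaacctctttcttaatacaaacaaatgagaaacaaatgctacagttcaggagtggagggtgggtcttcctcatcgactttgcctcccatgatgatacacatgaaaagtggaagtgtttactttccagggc
The match in the S100a9 window is AGATAA, starting 30 bases before the RefSeq start, and that in the S100a8 window and that in the Pf4 window are ACTTCCTC, the reverse complement of the PU.1 core. The bases trimmed from the S100a8 window hold TATAAA at 30 bases before its RefSeq start, and the Ppbp window holds TATAAA at 30 and at 8 bases before its start. No match of these letters is in the Siglecf window. Searched over the whole 300 bases of RefSeq's windows (250 before to 50 after a start), GAGGAAGT or its reverse complement was in 6 of 16 windows of neutrophil and eosinophil members (Elane, Mpo, Prtn3, S100a8 and both windows of Ly6g), 37.5%, and in 1 of 21 windows of the other members (Pf4), 4.76%, against 3.2% of all 32851 windows. AGATAA or its reverse complement was in 12.5% of the neutrophil and eosinophil windows and 33.3% of the others (Alas2, Cpa3, Fcer1a, Hbb-bs, Ms4a2, Pf4 and Prss34), against 11.2% of all windows. TATAAA or its reverse complement was in 12 of the 37 member windows, 32.4%, against 13.6% of all. The 3 motifs did not overlap each other in any member window, 35 of the 40 members had a window, and such matches are letters, not measured binding.

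The 5 neutrophil members of the primary granule list were low, led by Mpo. Mpo, which encodes myeloperoxidase, had 119, 126 and 112 units on hHVS and 124, 124 and 101 units on PCL, or 1.65, 1.53 and 1.46 CPM on hHVS and 1.62, 1.71 and 1.30 CPM on PCL. The 6 values interleave (log2 fold change 0.00 ± 0.22 SE, adjusted p = 0.995, edgeR). Elane, the neutrophil elastase gene, had 20, 37 and 16 units on hHVS and 28, 20 and 24 units on PCL, above the floor in all 6 libraries. Its neighbour Prtn3, the proteinase 3 gene 3.1 kb away on chromosome 10, was above the floor in 5 of 6 libraries, with 14, 33 and 14 units on hHVS and 12, 24 and 15 units on PCL. For both genes the highest hHVS value was in library 2. Ctsg, the cathepsin G gene, and Fcnb, which encodes the lectin ficolin B, were above the floor in 0 libraries, and each was at 0 in 1 library, hHVS library 3 for Ctsg and PCL library 1 for Fcnb. Mpo and Prtn3 overlap Gm11505 and Plppr3 on the other strand and may hold reads of those genes, as the sources used here do not give the strand setting of the counting.

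Later neutrophil genes were the granulocyte members most widely detected, with Ly6g as the exception. Which cells of these bulk samples held the transcripts of these genes was not tested. Of 8, 7 were above the floor in all 6 libraries, and together the 8 summed to 16 to 18.6 FPKM on hHVS and 14.6 to 19.2 FPKM on PCL. S100a8 and S100a9 encode the subunits of calprotectin and lie 22.6 kb apart on chromosome 3. S100a8 had 2.88, 3.70 and 3.20 CPM on hHVS and 3.03, 3.67 and 4.38 CPM on PCL, and the groups overlapped (log2 fold change -0.18 ± 0.20 SE, adjusted p = 0.747, edgeR). S100a9 had 3.22, 4.19 and 3.50 CPM on hHVS and 2.58, 3.17 and 3.98 CPM on PCL, again overlapping (0.17 ± 0.21 SE, adjusted p = 0.785, edgeR). Both genes were highest in library 2 among the hHVS libraries and in library 3 among the PCL libraries.

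Ngp, which encodes neutrophilic granule protein, varied little between libraries and had 4.64, 4.39 and 4.69 CPM on hHVS and 4.21, 4.49 and 3.94 CPM on PCL (log2 fold change 0.12 ± 0.14 SE, adjusted p = 0.767, edgeR). Ltf, the lactoferrin gene, had 3.34, 2.61 and 2.35 CPM on hHVS and 2.42, 3.23 and 2.77 CPM on PCL. Lcn2, the gene of the iron carrier binding protein lipocalin 2, had 1.42, 1.40 and 0.732 CPM on hHVS and 1.07, 1.2 and 1.43 CPM on PCL. Groups overlapped for Ngp, Ltf and Lcn2, and the lone low value of Lcn2 was that of hHVS library 3.

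Camp, the cathelicidin gene, had 1.24, 1.07 and 0.993 CPM on hHVS and 0.955, 0.497 and 0.824 CPM on PCL, with every hHVS value above every PCL value on this scale but not in FPKM (log2 fold change 0.53 ± 0.33 SE, adjusted p = 0.541, edgeR). Retnlg, a resistin-like gene of mature neutrophils, averaged 0.627 CPM on hHVS and 0.424 CPM on PCL (0.56 ± 0.36 SE, adjusted p = 0.558, edgeR). Its libraries did not overlap on either scale, although each held at most 56 units. Ly6g, the surface antigen that defines mouse neutrophils, was above the floor in 0 libraries, with 9, 8 and 0 units on hHVS and 5, 10 and 0 units on PCL.

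Among the other neutrophil genes of the lists, 13 of 20 later ones were tested, and 2 rose on hHVS and 0 fell. Of all genes tested, 0.562% were called higher on hHVS. An unadjusted edgeR p under 0.05 was seen for 6 of the 13, against 13.1% of all genes tested. The collagenase gene Mmp8 rose to 55.7 ± 3.50 FPKM on hHVS, against 21.6 ± 1.27 FPKM on PCL (SD, n = 3 each; adjusted p = 0.00333, edgeR), and it passed whichever library was left out. Padi4, whose enzyme citrullinates histones in neutrophils, rose to 0.205 ± 0.0147 FPKM on hHVS, against 0.0451 ± 0.00565 FPKM on PCL (adjusted p = 0.0333, edgeR). Its adjusted p was 0.0622 to 0.167 whichever library was left out, so its call rests on all 6. Csf3r, the receptor gene for granulocyte colony-stimulating factor, stood at 28.3 ± 1.58 FPKM on hHVS and 25.6 ± 1.19 FPKM on PCL, and Mmp9, the gelatinase B gene, at 8.09 ± 3.48 FPKM on hHVS and 2.90 ± 1.34 FPKM on PCL, and neither passed (adjusted p = 0.238 and 0.171, edgeR). Stfa1, Stfa2 and Stfa3, stefin genes of mature neutrophils, had 0 units in all 6 libraries. On the primary granule list were 7 other genes, not all of which encode granule proteins. Of these, 4 were tested and 0 passed in edgeR, with 1 at an unadjusted p under 0.05, against 13.1% of all genes tested. The highest, the C-type lectin gene Clec12a, was at 51.5 ± 3.58 FPKM on hHVS and 68.9 ± 8.41 FPKM on PCL. Next came Rab44, a GTPase gene, at 0.301 ± 0.0842 FPKM on hHVS and 0.232 ± 0.0771 FPKM on PCL, and Cebpe, a granulocyte transcription factor gene, under 0.2 FPKM in every library. Bpi, which encodes a bactericidal granule protein, was at 0 in all 6. Which cells of these bulk samples held the Mmp8, Csf3r, Mmp9 and Clec12a transcripts was not tested.

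Most mast cell and basophil members were not detected. Of 7 members, 5 were above the floor in 0 libraries: Cpa3, the mast cell carboxypeptidase gene, had 2 to 8 units per library, Mcpt8, a basophil protease gene, 0 to 8, Prss34, another basophil protease gene, 0 to 4, and Ms4a2, the beta chain of the high-affinity IgE receptor, 4 units in hHVS library 3 and 0 elsewhere. Fcer1a, the alpha chain of that receptor, had 0 units in all 6 libraries, a count that still permits a level of 0.0505 CPM on hHVS and 0.0545 CPM on PCL, each over 3 libraries. Hdc, the histidine decarboxylase gene that makes histamine, had 9, 10 and 21 units on hHVS and 6, 0 and 0 units on PCL, above the floor only in hHVS library 3.

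Gata2, a transcription factor gene of progenitors, mast cells and megakaryocytes, was the only one of the 7 members above the floor in all 6 libraries. It had 2.29, 2.04 and 2.10 CPM on hHVS and 2.85, 2.91 and 3.19 CPM on PCL. Every hHVS library was below every PCL library, with a log2 fold change of -0.48 ± 0.17 SE, and it missed the threshold (adjusted p = 0.288, edgeR). Of the 15 other genes of the list, 7 were at 0 in all 6 libraries. They were the mast cell protease genes Cma1, Mcpt4, Tpsb2 and Tpsab1, the mast cell receptor genes Mrgprb1 and Mrgprb2, and the cytokine gene Il13. A further 6 were tested with 0 passing in edgeR, and 1 had an unadjusted p under 0.05, against 13.1% of all genes tested. That gene was Cd200r3, a receptor gene of basophils and mast cells, with 3, 54 and 50 units on hHVS and 124, 165 and 153 units on PCL. Every hHVS library was below every PCL library, and hHVS library 1 was the lowest (log2 fold change -2.11 ± 0.74 SE, adjusted p = 0.281 in edgeR and 0.0335 in DESeq2, and up to 0.497 over the alternatives). Genes that macrophages also transcribe stood far higher, with the prostaglandin D synthase gene Hpgds at 41.0 ± 3.35 FPKM on hHVS and 48.3 ± 3.86 FPKM on PCL and the transcription factor gene Mitf at 19.5 ± 0.354 FPKM on hHVS and 23.2 ± 4.28 FPKM on PCL. The third most abundant was the cytokine gene Il4, at 0.616 ± 0.108 FPKM on hHVS and 0.687 ± 0.0951 FPKM on PCL.

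Of the eosinophil members, Siglecf was the one with a sizeable level and the largest difference in relation to its error. Siglecf, a sialic acid binding receptor gene on chromosome 7 (43351341 to 43359531), had 16.8, 11.9 and 12.2 CPM on hHVS and 23.0, 31.3 and 29.3 CPM on PCL. Every hHVS library was below every PCL library, with means of 13.7 ± 2.77 CPM on hHVS and 27.8 ± 4.30 CPM on PCL (SD, n = 3 each). The log2 fold change was -1.03 ± 0.17 SE and lay just outside the threshold (unadjusted p = 4.77e-04, adjusted p = 0.0521, edgeR). It passed with DESeq2 (adjusted p = 2.14e-06), with scaling by library totals (0.0356), with a minimum count of 40 (0.0469) and with units divided by 4 (0.0448). The adjusted p over all alternatives ranged up to 0.228, and it was at least 0.0684 whichever single library was left out, where the log2 fold change was -1.21 to -0.94. Without PCL library 3 and hHVS library 2 together it was -0.90 ± 0.22 SE (adjusted p = 0.208, edgeR).

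The other eosinophil members, Prg2 and Epx, stood far below Siglecf. Prg2, the major basic protein gene, had 25, 29 and 38 units on hHVS and 29, 44 and 38 units on PCL, above the floor in all 6 libraries and overlapping (log2 fold change -0.30 ± 0.40 SE, adjusted p = 0.792, edgeR). Epx, the eosinophil peroxidase gene, had 6, 0 and 10 units on hHVS and 0, 4 and 16 units on PCL, and the mean FPKM of Siglecf was 263 times that of Epx. Of 7 other eosinophil list genes, which summed to 10.1 to 13.4 FPKM on hHVS and 11.1 to 12.9 FPKM on PCL, 3 were tested and 0 passed in edgeR, with 0 at an unadjusted p under 0.05. Il5ra, the interleukin-5 receptor gene, was at 0 in all 6 libraries, whereas the eotaxin receptor gene Ccr3, above Siglecf in mean FPKM, stood at 9.78 ± 1.69 FPKM on hHVS and 9.81 ± 1.28 FPKM on PCL, and the ribonuclease gene Ear2 at 1.66 ± 0.69 FPKM on hHVS and 2.15 ± 0.47 FPKM on PCL. Ear1, the third by level, was under 0.3 FPKM in every library.

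**Figure D3:**
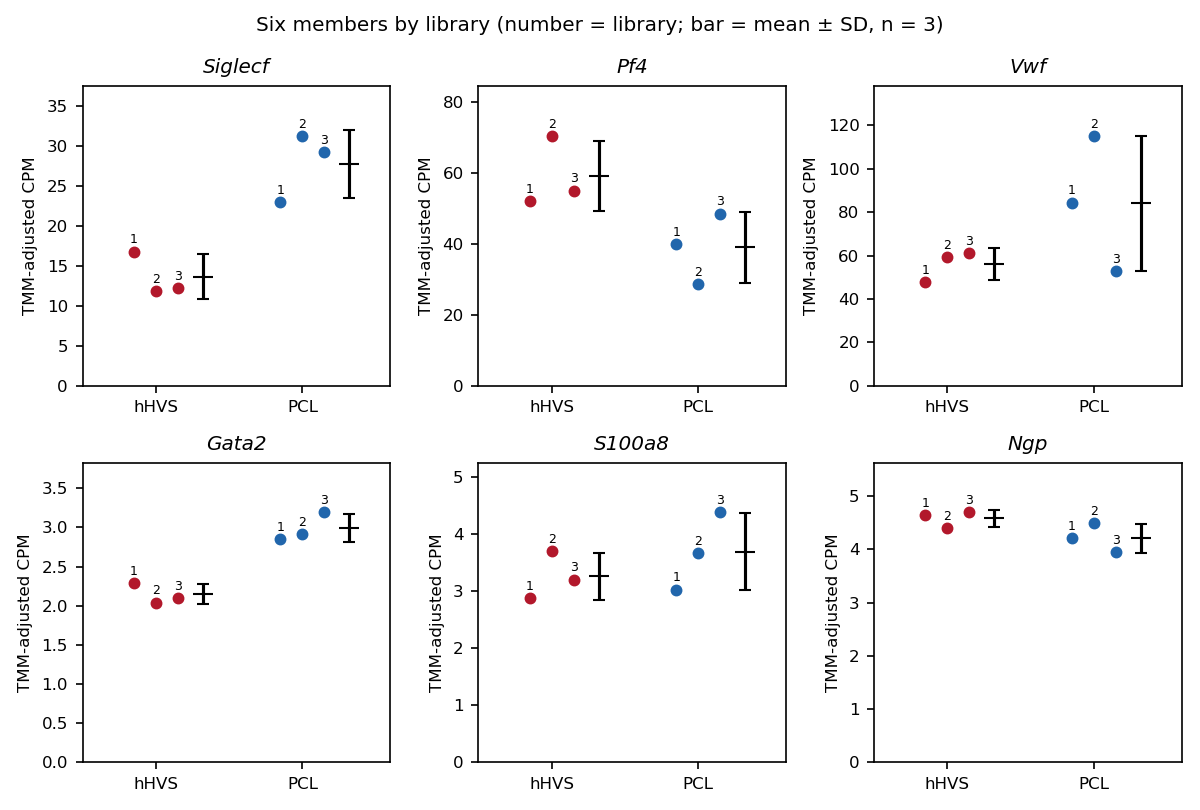
TMM-adjusted CPM of 6 members in each library, hHVS at left and PCL at right, with library numbers and mean ± SD (n = 3). Siglecf and Gata2 were lower in every hHVS library than in any PCL library, Pf4 was higher, and Vwf, S100a8 and Ngp overlapped.

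Globin transcripts were present at a low and even level. The 4 adult globin genes together made up 7.03, 7.97 and 7.45 CPM of the unadjusted totals on hHVS and 8.28, 6.87 and 7.19 CPM on PCL, and their summed FPKM averaged 9.03 ± 0.543 on hHVS and 8.99 ± 0.897 on PCL (SD, n = 3 each). Hba-a1, an alpha globin gene, had 2.64, 3.37 and 2.53 CPM on hHVS and 2.73, 2.48 and 2.31 CPM on PCL, and Hba-a2 had 1.57, 1.49 and 2.10 CPM on hHVS and 1.86, 1.84 and 1.67 CPM on PCL. Of the beta globin genes, Hbb-bs had 2.39, 1.98 and 2.03 CPM on hHVS and 2.22, 1.27 and 1.89 CPM on PCL, and Hbb-bt had 0.737, 1.24 and 1.01 CPM on hHVS and 1.2, 1.24 and 0.992 CPM on PCL. In all 4 the groups overlapped, and adjusted p was 0.73 to 0.944 (edgeR). Values of single globin genes are uncertain, since 72.3% of the 50-base words of Hba-a1 also occur in Hba-a2 and 53.2% of those of Hbb-bs in Hbb-bt. The 300-base promoter windows of Hba-a1 and Hba-a2 share a run of 297 bases, while those of Hbb-bs and Hbb-bt share one of 14.

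Genes of nucleated erythroid cells were lower still. Gata1, the erythroid and megakaryocyte transcription factor gene, had 4 units in hHVS library 3 and 4 in PCL library 1 and 0 elsewhere. Klf1, which activates beta globin, had 8, 0 and 8 units on hHVS and 26, 20 and 16 units on PCL, so all hHVS libraries were below the floor and all PCL libraries above it (log2 fold change -1.92 ± 0.96 SE, adjusted p = 0.444, edgeR). Ermap, an erythroid membrane protein gene, had 10, 10 and 8 units on hHVS and 18, 19 and 15 units on PCL (-0.91 ± 0.51 SE, adjusted p = 0.5, edgeR). For both genes every hHVS library was below every PCL library, at no more than 26 units.

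Alas2, the erythroid enzyme that begins haem synthesis, had 5, 17 and 18 units on hHVS and 4, 9 and 8 units on PCL, and it overlaps Apex2 on the other strand. Slc4a1, the band 3 anion exchanger gene of red cells, was above the floor in 5 of 6 libraries, with 16, 8 and 32 units on hHVS and 26, 38 and 20 units on PCL. The carbonic anhydrase gene Car1 had at most 11 units and was above the floor in 0 libraries, and its neighbour Car2, which osteoclasts also use, had 30, 42 and 40 units on hHVS and 32, 42 and 28 units on PCL. For Alas2, Slc4a1 and Car2 the groups overlapped.

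Of 23 other erythroid genes, 11 were tested, 1 rose on hHVS and 0 fell, where 0.562% of all genes tested rose. An unadjusted edgeR p under 0.05 was seen for 3 of the 11, against 13.1% of all genes tested. Epor, the erythropoietin receptor gene, rose to 1.30 ± 0.34 FPKM on hHVS, against 0.315 ± 0.118 FPKM on PCL, at the edge of the threshold (log2 fold change 2.10 ± 0.35 SE, adjusted p = 0.0499, edgeR), and the adjusted p was 0.0623 to 0.178 whichever library was left out. The embryonic globin genes Hbb-bh1 and Hbb-y and the erythroid gene Tspo2 were at 0 in all 6 libraries. The most abundant was the ferrochelatase gene Fech, at 20.6 ± 0.61 FPKM on hHVS and 20.0 ± 1.69 FPKM on PCL. The mitochondrial iron importer gene Slc25a37 was at 10.4 ± 0.848 FPKM on hHVS and 8.56 ± 0.614 FPKM on PCL, and the transcription factor gene Tal1 at 3.07 ± 0.67 FPKM on hHVS and 3.18 ± 0.897 FPKM on PCL. These 3 are transcribed in cells other than erythroblasts too.

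Megakaryocyte and platelet members were split between very unequal levels. Pf4, platelet factor 4, a chemokine gene on chromosome 5 (90772435 to 90773383), had 52.1, 70.4 and 55.0 CPM on hHVS and 39.9, 28.7 and 48.5 CPM on PCL. Every hHVS library was above every PCL library in CPM, but in FPKM hHVS library 1 (62.9) lay just below PCL library 3 (63.5). The log2 fold change was 0.60 ± 0.20 SE and missed the threshold (adjusted p = 0.262, edgeR). DESeq2 gave an adjusted p of 0.0405, while the other alternatives for Pf4 went up to 0.493, and without PCL library 3 and hHVS library 2 the log2 fold change was 0.65 ± 0.17 SE (adjusted p = 0.225, edgeR).

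Ppbp, the gene of the other main platelet chemokine, ends 2.4 kb before Pf4 on the same strand. Its window above differs from that of Pf4 in holding TATAAA and in lacking ACTTCCTC. Ppbp had 26, 39 and 0 units on hHVS and 16, 55 and 19 units on PCL. The mean FPKM of Pf4 was 220 times that of Ppbp. Itga2b, the integrin subunit of the platelet fibrinogen receptor, had 37, 46 and 24 units on hHVS and 44, 4 and 38 units on PCL. Gp9, a subunit of the platelet receptor for von Willebrand factor, had 0 to 4 units and was above the floor in 0 libraries. Gp1bb, another subunit of it, had 16, 0 and 0 units on hHVS and 25, 10 and 26 units on PCL, but 90.6% of its 50-base words also occur in other genes, chiefly the overlapping Sept5, so its reads cannot be assigned with certainty. For Ppbp, Itga2b, Gp9 and Gp1bb the groups overlapped, and none of those tested passed the threshold.

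Vwf, the von Willebrand factor gene on chromosome 6, was second to Pf4 in this group. It had 47.6, 59.3 and 61.2 CPM on hHVS and 84.3, 115 and 52.9 CPM on PCL, and PCL library 3 lay among the hHVS libraries. Its log2 fold change was -0.58 ± 0.26 SE (adjusted p = 0.393, edgeR), and it was -0.29 without PCL library 2, the highest, and -0.87 ± 0.19 SE without PCL library 3 and hHVS library 2 (adjusted p = 0.176, edgeR). Per length Vwf was at 3.08 ± 0.436 FPKM on hHVS and 4.83 ± 1.69 FPKM on PCL (SD, n = 3 each). That level is over the 16064 bases of all its annotated exons merged, while its longest annotated transcript has 8834. Endothelial markers stood lower: 6 of them summed to 0.997 to 1.14 FPKM on hHVS and 1.17 to 1.84 FPKM on PCL, none was at 0 in all libraries, and Kdr, the highest, was at 0.665 ± 0.0139 FPKM on hHVS and 0.932 ± 0.0718 FPKM on PCL (adjusted p = 0.192, edgeR). Cdh5, the endothelial cadherin gene, had 0.0778, 0.0615 and 0.0521 FPKM on hHVS and 0, 0.0747 and 0.37 FPKM on PCL, and its log2 fold change was -1.70 to 0.79 with 1 library left out. PCL library 3 was also the highest for the endothelial genes Emcn (0.062 FPKM, and 0 in the other 5 libraries) and Tek (0.0508 FPKM). The endothelial gene Tie1 was instead highest in hHVS library 2 (0.0338 FPKM, against 0.023 FPKM in PCL library 3). Esam, another, was highest in hHVS library 3 (0.399 FPKM, against 0.349 FPKM in PCL library 3). The Vwf value of PCL library 3 was the lowest of the PCL libraries. The part of endothelial cells in the Vwf values was not tested.

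Of 17 other megakaryocyte and platelet genes, 10 were tested and 0 passed in edgeR. An unadjusted edgeR p under 0.05 was seen for 3 of the 10, against 13.1% of all genes tested. The most abundant were the transcription factor gene Fli1, at 22.8 ± 1.10 FPKM on hHVS and 24.3 ± 1.49 FPKM on PCL, the thrombospondin gene Thbs1, at 13.3 ± 3.60 FPKM on hHVS and 10.2 ± 7.40 FPKM on PCL, and the granule formation gene Nbeal2, at 10.5 ± 1.03 FPKM on hHVS and 11 ± 1.38 FPKM on PCL.

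Over the 6 lineages, the 89 other genes of the lists held 47 that were tested, of which 3 rose on hHVS (Mmp8, Padi4 and Epor) while 0 fell. Their median log2 fold change was -0.01. Of the 47, 14 had an unadjusted edgeR p under 0.05, a larger share than the 13.1% of all genes tested. DESeq2 called 4 higher and 2 lower, where it called 3.7% of all genes it adjusted. The edgeR calls are 6.38% of the 47, beside 0.862% over all genes, and their number was 1 whichever single library was left out. The lists were chosen with earlier results of these data known. These shares, like those of single lists, thus cannot be read as results about the lineages.

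**Figure D4:**
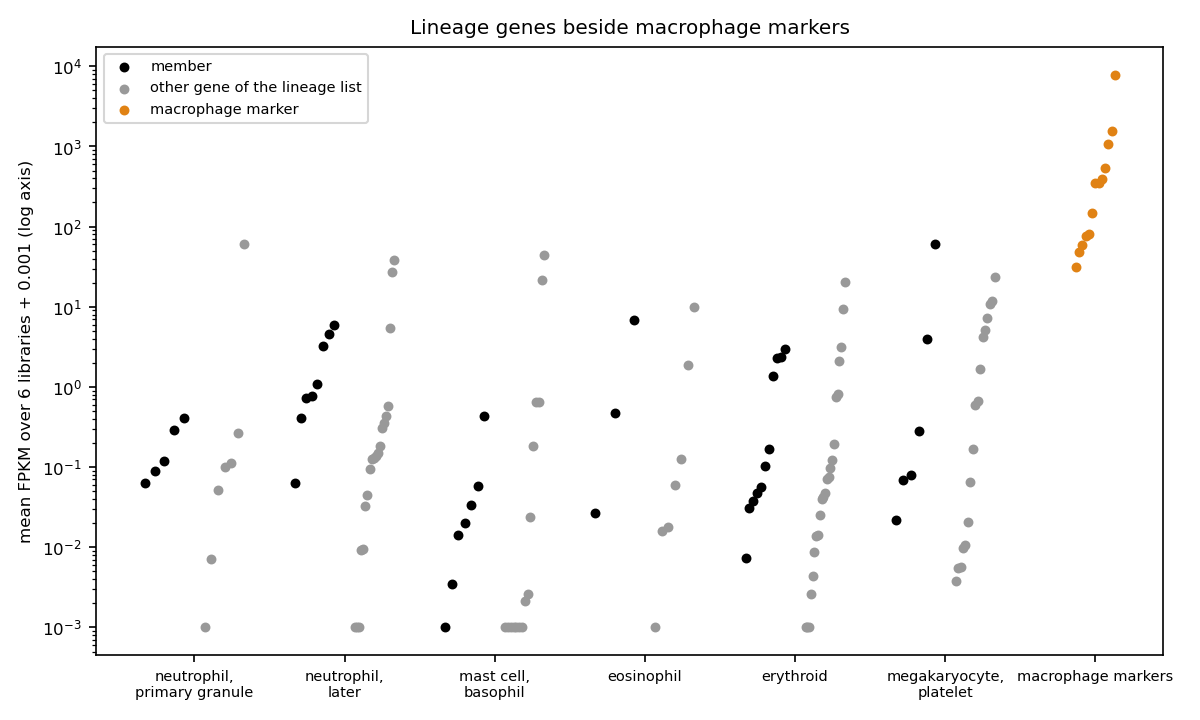
Mean FPKM over the 6 libraries plus 0.001 (log axis) of every member (black) and every other gene (grey) of each lineage list, beside the 13 records of macrophage markers (orange). Every member but Pf4 lies below the lowest macrophage marker, at 31.5 FPKM, and within each lineage a few genes stand far above the rest of their list.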

How the data were processed

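Estimated counts and FPKM values, deposited by the authors as 2 tables of 51912 records, have 1 column per library, matched by title. Libraries came from a stranded mRNA kit, per the labels' protocols. The submitters' processing notes list STAR, featureCounts, FastQC and MultiQC and the build mm10, without versions or the tool behind either table. The tests had been planned for raw counts. The deposited estimated counts are whole numbers with peaks at 4 and 8 (6544 cells hold 4, against 2701 with 3 and 1483 with 5), so about 4 units were taken as 1 fragment. The most frequent value above 0 is 1 (6904 cells, and 3737 hold 2), which that reading does not account for, so numbers of fragments are approximate. The values were used as deposited. For 51 of 57 list genes with at least 100 units in every library, the deposited FPKM equalled, within 2% of one common ratio, units per merged exon length and library total.

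Genes passing filterByExpr (minimum count 10) were compared between hHVS and PCL using edgeR 4.0.16 (R 4.3.3; quasi-likelihood test), TMM factors of 0.959 to 1.05, group as the only term and Benjamini-Hochberg adjustment over all genes tested. SE is the size of the log2 fold change over the root of its F statistic. The test was checked on simulated data of 15881 genes for this comparison. It recovered 74 of 100 genes changed 2-fold and 95 of 100 changed 4-fold, and it called 8 unchanged genes. The changed genes were drawn from those averaging over 1 CPM, so the recovery does not cover tested members below that level. The alternatives were DESeq2 1.42.0, limma-voom (limma 3.58.1), other normalizations and filters, a replicate block, leaving out libraries, and units divided by 4, the last and the joint leaving out of 2 libraries chosen after seeing the data. Libraries of a group differed beyond sampling noise (chi-square per gene at least 10.8).

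The members and lists were chosen with earlier results of these data known. Values in every library are given for members of at least 1 CPM in the higher group. They are also given for members of few units where each value matters, and the rest are given by range. Of other list genes, those past the threshold, those at 0 and the 3 highest in FPKM were named. The named genes of marker lists (Adgre1, C1qa, Kdr, Cdh5, Emcn, Tek, Tie1, Esam) and Cd200r3 were picked after their values were seen. Of 181 symbols, 180 were found. Coordinates are from GENCODE M21 on GRCm38, the assembly of mm10, matched by identifier for 99.5% of records, and promoter windows from RefSeq.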

Additional observations from a re-analysis of the deposited data

How the results depend on the processing

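The count of members past the threshold was 0 in both directions in edgeR, also with every single library left out (0 to 0), with RLE size factors, without a filter, with the replicate block and with limma-voom. It became 1 higher and 1 lower with DESeq2, and 1 lower with library totals, a minimum count of 40 or units divided by 4. Library totals moved the median log2 fold change of all genes to -0.09. Of 384 recomputed log2 fold changes of single members, 379 kept their side of the threshold, 5 passed it and 0 reversed a call; 16 of the 27 members kept their sign in every alternative run. Members above the floor in every library were 19, and 22 or 14 with a floor of 1 or 10 fragments.

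Over all genes, 92 were higher and 49 lower. These counts were 380 and 284 with DESeq2, 54 and 22 without a filter, 47 and 19 without PCL library 3 and hHVS library 2 (chosen after seeing the data, like units divided by 4), and 26 and 10 with the replicate block, and 71 and 74 with library totals. With 1 library left out they were 20 to 94 and 10 to 60. Other lineage genes past the threshold, 3 higher and 0 lower, were 1 higher with the replicate block, with those libraries left out together and with any 1 library left out (1 to 1), and 2 lower with DESeq2; the cause was not tested. Same-numbered libraries did not deviate together (correlations of 0.12, -0.01 and -0.06), so the numbers were not taken as pairs. Depth limits genes under about 3 fragments per library.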
